A study of Mus musculus with 1 sample.

Results

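The genes of the junctions between cells of the seminiferous cords were followed across the cell types of the fetal mouse testis. The set held 9 genes, taken by symbol from the gene list of the control library: *Gja1* of gap junctions, *Cldn11*, *Ocln*, *Jam2*, *Jam3*, *F11r* and *Tjp1* of tight junctions, and *Cdh1* and *Cdh2* of adherens junctions. On GRCm38 they lie on chromosomes 10 (*Gja1*), 3 (*Cldn11*), 13 (*Ocln*), 16 (*Jam2*), 9 (*Jam3*), 1 (*F11r*), 7 (*Tjp1*) and 8 (*Cdh1*), and none of the 9 shares exonic bases with another gene on its strand. They were 9 of the 22631 genes of the library, and all 9 were among the 15097 genes seen in at least 10 of the cells kept.

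The control library was 1 suspension of whole testes pooled from 12 controls at embryonic day 14.5, labelled wild type. The methods describe the controls as *Nr5a1* L2/L2 fetuses, which carry loxP-flanked *Nr5a1* alleles and no Cre transgene, and the text of the study also names an earlier day. The testes were dissociated with trypsin and EDTA and the RNA of single cells was captured in droplets from its 3′ end, each molecule being counted once by its unique molecular index (UMI). The mutant library was not analysed here, so no barcodes could be compared between libraries, and cells of 1 library are not replicates: no test was made.

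Sertoli cells surround the germ cells in epithelial cords and join each other by several kinds of junction. Gap junctions are channels of connexins through which neighbouring cells exchange small molecules. Tight junctions seal the space between epithelial cells by claudins and occludin, with junctional adhesion molecules beside them and scaffold proteins beneath, and in the adult testis they form the blood-testis barrier between Sertoli cells. Adherens junctions hold cells together by cadherins, which bind actin through catenins.

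After removal of barcodes with few genes, doublets and outliers, 3821 of 5421 barcodes remained, with a median of 12082 UMIs (2262 to 53807) and 54680020 UMIs in all. They fell into 16 clusters, which were named from marker genes, and the genes of a list of 144 junction genes, the 9 genes included, were kept out of the clustering. Sertoli-like cells numbered 863 and had UMIs of all 10 Sertoli markers, *Amh* and *Sox9* among them, in at least 25% of cells. The other classes were interstitial-like (1351 cells), peritubular myoid-like (524), Leydig-like (312), germ-like (249), coelomic epithelium-like (150), perivascular-like (109), immune-like (35), erythroid-like (35), endothelial-like (20) and rete testis-like cells (19). Another 2 clusters stayed unnamed: cluster 10 (90 cells), with *Emcn* and *Gdf10* among its leading genes, and cluster 11 (64 cells), which had Sertoli markers at 81.5% of their Sertoli-like level but a median of 3148 UMIs. In the other classes the summed Sertoli markers lay between 0.23% (endothelial-like) and 11.7% (rete testis-like) of that level. Among the named classes median depth ran from 9321 UMIs in interstitial-like to 36054 in germ-like cells, against 14316 in Sertoli-like cells.

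RefSeq promoter windows of the GRCm38.p6 build were at hand for 5 of the 9 genes. *Gja1*, *Cldn11* and *F11r* are shown because all 3 were at least 2-fold higher in Sertoli-like cells than in all other cells. Each sequence ends at the RefSeq start, or at the annotated gene where that begins earlier (*F11r*), and is written 5′ to 3′ on the strand of the gene, which is the plus strand for all 3. The stretches shown are chr10:56377050-56377299 (*Gja1*), chr3:31149670-31149919 (*Cldn11*) and chr1:171437311-171437534 (*F11r*). Capitals mark a match on either strand to one of the motifs searched:
Gja1: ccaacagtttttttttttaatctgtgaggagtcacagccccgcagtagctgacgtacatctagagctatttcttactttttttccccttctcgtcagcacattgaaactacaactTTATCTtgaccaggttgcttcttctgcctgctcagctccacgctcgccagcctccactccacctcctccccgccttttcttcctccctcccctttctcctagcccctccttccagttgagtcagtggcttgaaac
Cldn11: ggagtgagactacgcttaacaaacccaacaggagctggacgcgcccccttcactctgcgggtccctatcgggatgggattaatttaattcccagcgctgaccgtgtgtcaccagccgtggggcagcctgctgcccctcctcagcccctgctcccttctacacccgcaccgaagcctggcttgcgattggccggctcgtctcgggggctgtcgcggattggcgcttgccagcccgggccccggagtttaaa
F11r: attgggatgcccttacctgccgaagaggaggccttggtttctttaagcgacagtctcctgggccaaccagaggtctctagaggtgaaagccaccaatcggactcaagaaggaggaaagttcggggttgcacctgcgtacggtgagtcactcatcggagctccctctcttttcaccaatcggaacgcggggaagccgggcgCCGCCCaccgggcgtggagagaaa
Both strands of the 250 bases before the start were searched, and the same was done in 32851 RefSeq windows of this length. The core that SOX factors bind, written ACAAT, was in 27.7% of the windows. A half-site of NR5A1, the nuclear receptor of this study, written AAGGTCA, was in 4.08%. The letters of GATA factor sites, written AGATAA, were in 9.99%. A GC box, written GGGCGG, was in 32.7%, and the TATA box, written TATAAA, in 12.4%. The *Gja1* window held 1 GATA match, on the opposite strand from position -135 to -130, and the *F11r* window 1 GC box, on the opposite strand from -50 to -45. Positions count back from the RefSeq start. The *F11r* window searched ran on to chr1:171437560, past the end of the sequence shown. The *Cldn11* window held none of these letters, and neither SOX nor NR5A1 letters were in any of the 3. These are matches of letters only, and no binding was measured here.

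For each class the UMIs of a gene were added up and divided by the class total, which gives counts per 1000000 UMIs (CPM) and a Poisson interval (exact, 95%). The share of cells with a UMI was taken after each cell was thinned to 5000 UMIs, and its interval is binomial (exact, Clopper-Pearson, 95%). What these intervals cover is counting error alone. Thinning left out 17 of the Sertoli-like, 66 of the interstitial-like, 11 of the peritubular myoid-like, 7 of the coelomic epithelium-like, 4 of the germ-like, 3 of the Leydig-like, 3 of the immune-like and 1 of the perivascular-like cells, with 5 and 52 cells of clusters 10 and 11.

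*Gja1*, which encodes connexin 43, was high in Sertoli-like and in Leydig-like cells. Its level was 258.2 CPM (interval 249.5 to 267.1) in the Sertoli-like class, against 225.6 CPM (213.5 to 238.2) in the Leydig-like class, a ratio of 1.14 (1.07 to 1.22). At 5000 UMIs it was seen in 70.7% (67.5 to 73.7) of Sertoli-like and 52.8% (47.0 to 58.4) of Leydig-like cells, and without thinning in 93.1% and 79.8%. The Leydig-like class held 2 clusters with different *Gja1* levels. The cluster led by *Cyp11a1* and *Cyp17a1*, the enzymes of steroid synthesis (128 cells), had 295.9 CPM (277.3 to 315.3), above the Sertoli-like level. The cluster led by *Nppc* and *Vsnl1*, with no Leydig marker among its 10 leading genes (184 cells), had 136.4 CPM (122.4 to 151.6). Cluster 11 followed at 91.96 CPM (58.29 to 138.0), then coelomic epithelium-like cells at 47.0 (39.27 to 55.81) and endothelial-like cells at 36.32 (15.68 to 71.57), with intervals of the last 2 that overlap. Peritubular myoid-like cells, which lie against the outside of the cords, had 23.68 CPM (20.22 to 27.57), and interstitial-like cells 11.76 (9.995 to 13.74). Germ-like cells had 2.404 CPM (1.488 to 3.674). The Sertoli-like level of *Gja1*, scaled by the share of Sertoli markers in germ-like cells, gives 2.62 CPM. In rete testis-like cells the same scaling gives 30.27 CPM, and 2 UMIs were seen, or 8.394 CPM (1.017 to 30.32). The paper reports SOX9, the product of a Sertoli marker, in rete testis cells. Where the UMIs of Sertoli markers and of *Gja1* in both classes came from was not tested.

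**Figure D1:**
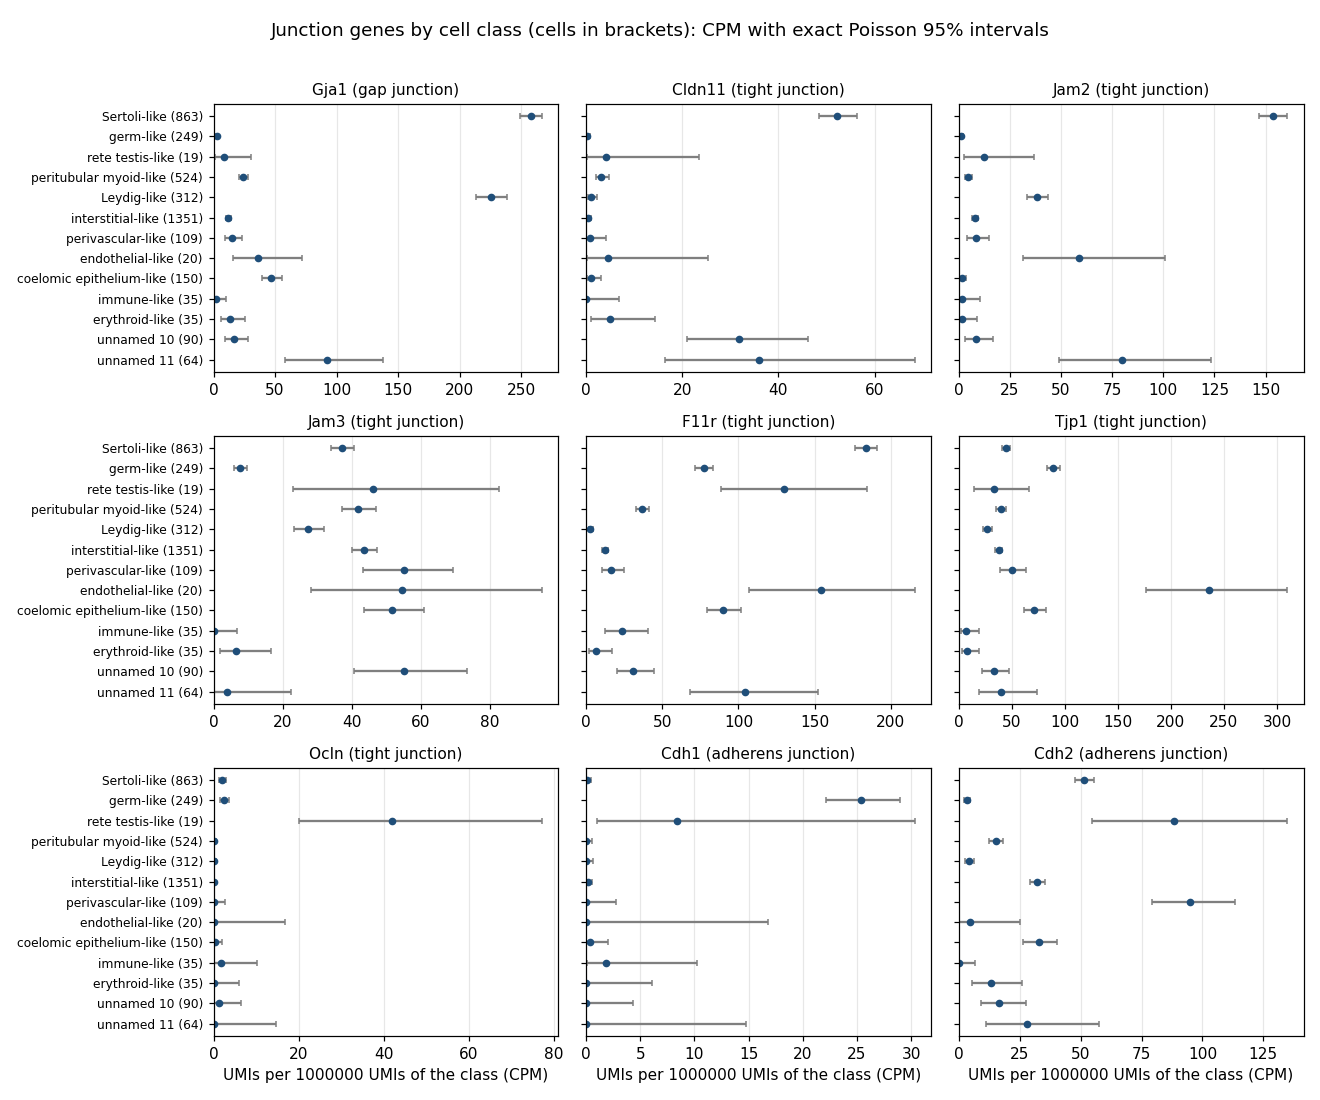
Level of each of the 9 junction genes by cell class, in UMIs per 1000000 UMIs of the class (CPM, x axis, its own scale for each gene, starting at 0). Points are the level, bars the exact Poisson 95% interval (counting error only), and the number in brackets is the number of cells. Gja1 is high in both Sertoli-like (258.2) and Leydig-like cells (225.6), and Cdh1 is highest in germ-like cells (25.41).

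*Cldn11*, the claudin of Sertoli cell tight junctions and of myelin, had 677 UMIs in Sertoli-like cells, or 52.28 CPM (48.42 to 56.37). It was seen in 20.4% (17.8 to 23.3) of them at 5000 UMIs and in 47.9% without thinning. Outside Sertoli-like cells its counts were small in each named class. Peritubular myoid-like cells had 22 UMIs (3.138 CPM, 1.967 to 4.752) and interstitial-like cells 6 (0.4465 CPM, 0.1638 to 0.9718). Leydig-like cells had 6 (1.046 CPM), germ-like cells 2 (0.2289 CPM) and immune-like cells 0, with an interval up to 6.75 CPM. At 5000 UMIs the share in germ-like cells was 0 of 245 and in interstitial-like cells 0.156% of 1285. The exception lay among the unnamed cells. Cluster 10 had 27 UMIs of *Cldn11*, or 31.71 CPM (20.9 to 46.14), in 17 of its 90 cells. Of the marker lists it came nearest to the interstitial one, with 8 of 8 markers in at least 25% of its cells. Its mean log2 ratio for that list, 0.73, was under the minimum for a name. Its share of Sertoli markers, 1.02%, scales the Sertoli-like level to 0.5345 CPM, and the source of its UMIs was not tested. At 5000 UMIs, 9.41% (4.15 to 17.7) of its cells had a UMI. The other unnamed cluster, number 11, had 9 UMIs (35.98 CPM, 16.45 to 68.31).

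*Ocln*, which encodes occludin, a transmembrane protein of tight junctions, had few UMIs in every class. Sertoli-like cells had 25 UMIs in 863 cells, or 1.931 CPM (1.249 to 2.85), and germ-like cells 21 UMIs, or 2.404 CPM (1.488 to 3.674), with intervals that overlap. No UMI was counted in the interstitial-like, peritubular myoid-like, Leydig-like, perivascular-like, endothelial-like or erythroid-like cells. For the deepest of these sums, that of interstitial-like cells, the interval of 0 UMIs reached up to 0.2745 CPM. It reached up to 16.75 CPM in endothelial-like, 6.036 in erythroid-like and 2.782 in perivascular-like cells. In these 3 classes a level like that of Sertoli-like cells could thus have gone unseen. The rete testis-like cells stood apart, with 10 UMIs in 5 of 19 cells, or 41.97 CPM (20.13 to 77.19), a ratio of 21.7 (9.32 to 46.9) to the Sertoli-like level. At 5000 UMIs, *Ocln* was seen in 21.1% (6.05 to 45.6) of rete testis-like and in 1.18% (0.568 to 2.16) of Sertoli-like cells. The value rests on 19 cells. With no doublets removed it was 24.06 CPM over 33 cells, with each cell classed by itself from the marker lists 4.614 CPM over 223 cells, and with doublets removed at double the rate no rete testis-like cluster was found.

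The junctional adhesion molecules are immunoglobulin-type proteins at tight junctions that bind each other across cells, JAM2 and JAM3 forming a pair. *Jam2* stood at 153.6 CPM (146.9 to 160.5) in Sertoli-like cells, then at 59.02 (31.43 to 100.9) in endothelial-like cells, from 13 UMIs, and at 38.18 (33.29 to 43.59) in Leydig-like cells. As with *Gja1*, the 2 Leydig-like clusters differed: 58.61 CPM (50.53 to 67.62) in the steroidogenic cluster against 12.26 (8.33 to 17.4) in the *Nppc* cluster. The other named classes lay between 1.145 CPM (germ-like) and 12.59 CPM (rete testis-like, 3 UMIs). At 5000 UMIs *Jam2* was seen in 52.1% (48.7 to 55.5) of Sertoli-like, 15.5% (11.7 to 20.1) of Leydig-like and 1.22% (0.253 to 3.54) of germ-like cells. Without thinning these shares were 82.0%, 35.3% and 3.61%.

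*Jam3* was spread over nearly all somatic classes. Interstitial-like cells had 43.53 CPM (40.07 to 47.21), peritubular myoid-like cells 41.94 (37.28 to 47.02), Sertoli-like cells 37.3 (34.05 to 40.78) and Leydig-like cells 27.37 (23.26 to 32.0). Perivascular-like cells had 55.06 CPM (43.16 to 69.23), cluster 10 55.21 and coelomic epithelium-like cells 51.7. From the highest of these down to Sertoli-like cells, the interval of each class overlapped that of the next. Germ-like cells were lower, at 7.669 CPM (5.943 to 9.739). No UMI of *Jam3* was counted in the immune-like cells, with an interval up to 6.75 CPM. In the shallow cluster 11 only 1 UMI of *Jam3* was counted, or 3.998 CPM (0.1012 to 22.28), below the Sertoli-like level, in contrast to its 20 UMIs of *Jam2*.

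*F11r*, which encodes the junctional adhesion molecule A of epithelia and endothelia, was highest in Sertoli-like cells but not limited to them. Sertoli-like cells had 183.5 CPM (176.2 to 191.0), endothelial-like cells 154.4 (106.9 to 215.7) and rete testis-like cells 130.1 (88.41 to 184.7), and the intervals of neighbours in this order overlapped. Coelomic epithelium-like cells had 90.03 CPM (79.2 to 101.9) and germ-like cells 77.26 (71.54 to 83.32). Scaled by the share of Sertoli markers in germ-like cells, the Sertoli-like level gives 1.862 CPM, and the source of the germ-like UMIs was not tested. A step down followed to peritubular myoid-like cells at 36.8 CPM (32.45 to 41.58) and interstitial-like cells at 12.13 (10.34 to 14.14). Leydig-like cells, high in *Gja1*, had the lowest *F11r* level at 2.789 CPM (1.594 to 4.53), an interval that overlapped that of erythroid-like cells (6.545 CPM, 1.783 to 16.76). At 5000 UMIs *F11r* was seen in 60.3% (56.9 to 63.6) of Sertoli-like, 33.9% (28.0 to 40.2) of germ-like and 1.94% (0.716 to 4.18) of Leydig-like cells, and without thinning in 91.1%, 90.4% and 4.17%.

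*Tjp1*, which encodes ZO-1, the scaffold that ties tight junction proteins to actin, was measured in every class and was not higher in Sertoli-like cells than in the rest. Endothelial-like cells stood highest at 236.1 CPM (176.3 to 309.6), from 52 UMIs in 18 of 20 cells. Germ-like cells had 88.94 CPM (82.79 to 95.41) and coelomic epithelium-like cells 71.23 (61.63 to 81.9). Sertoli-like cells had 44.4 CPM (40.85 to 48.19), and perivascular-like, peritubular myoid-like and interstitial-like cells lay between 37.8 and 49.78 CPM. The ratio of Sertoli-like cells to all other cells was 0.888 (0.808 to 0.974). Leydig-like cells had 27.02 CPM (22.94 to 31.63), 35.99 in the *Nppc* cluster and 19.95 in the steroidogenic cluster, the reverse of the order seen for *Gja1* and *Jam2*. The lowest levels were in erythroid-like (8.181) and immune-like cells (7.32). The share at 5000 UMIs was 65.0% (40.8 to 84.6) in endothelial-like, 29.0% (23.4 to 35.1) in germ-like and 19.0% (16.4 to 21.8) in Sertoli-like cells. With each cell classed by itself the endothelial-like class had 76 cells and 93.24 CPM of *Tjp1* and 58.96 CPM of *F11r*, and with doublets removed at double the rate no endothelial-like cluster was found.

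The 2 cadherins differed between the cells of the cord. *Cdh1*, E-cadherin, was in germ-like cells, with 222 UMIs or 25.41 CPM (22.18 to 28.98). It was seen in 56.2% of the 249 germ-like cells without thinning and in 11.4% (7.73 to 16.1) at 5000 UMIs. Sertoli-like cells had 1 UMI of *Cdh1* in 863 cells, or 0.07722 CPM (0.001955 to 0.4303), and interstitial-like cells 2 in 1351. Peritubular myoid-like, Leydig-like, perivascular-like, endothelial-like and erythroid-like cells had none. The ratio of germ-like to all other cells was 167.0 (79.6 to 420.0). Rete testis-like cells had 2 UMIs, both in 1 cell.

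*Cdh2*, N-cadherin, which lies on chromosome 18, was low in germ-like cells and present in Sertoli-like cells. It stood at 3.319 CPM (2.223 to 4.767) in germ-like and at 51.35 CPM (47.52 to 55.41) in Sertoli-like cells. Higher levels were found outside the Sertoli-like class, in perivascular-like cells at 95.04 CPM (79.17 to 113.2) and in rete testis-like cells at 88.14 (54.56 to 134.7). The rete testis-like level came from 21 UMIs in 10 of 19 cells, and its interval overlapped the Sertoli-like one. With each cell classed by itself it was 39.22 CPM. Under the other alternatives that had the class it lay between 74.35 and 117.1 CPM. The ratio of perivascular-like to Sertoli-like cells was 1.85 (1.52 to 2.24). Coelomic epithelium-like and interstitial-like cells had 32.9 and 32.29 CPM. Within the interstitial-like class the levels were 36.02 CPM (32.0 to 40.42) in the cluster led by *Colec11*, 38.84 (31.89 to 46.85) in the cluster led by histone genes and 13.56 (9.442 to 18.85) in the cluster led by *Ntng1*. Leydig-like cells had 4.184 CPM (2.681 to 6.226), near the germ-like level. At 5000 UMIs the share was 36.1% (27.1 to 45.9) in perivascular-like, 22.6% (19.8 to 25.5) in Sertoli-like and 0.408% (0.0103 to 2.25) in germ-like cells.

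**Figure D2:**
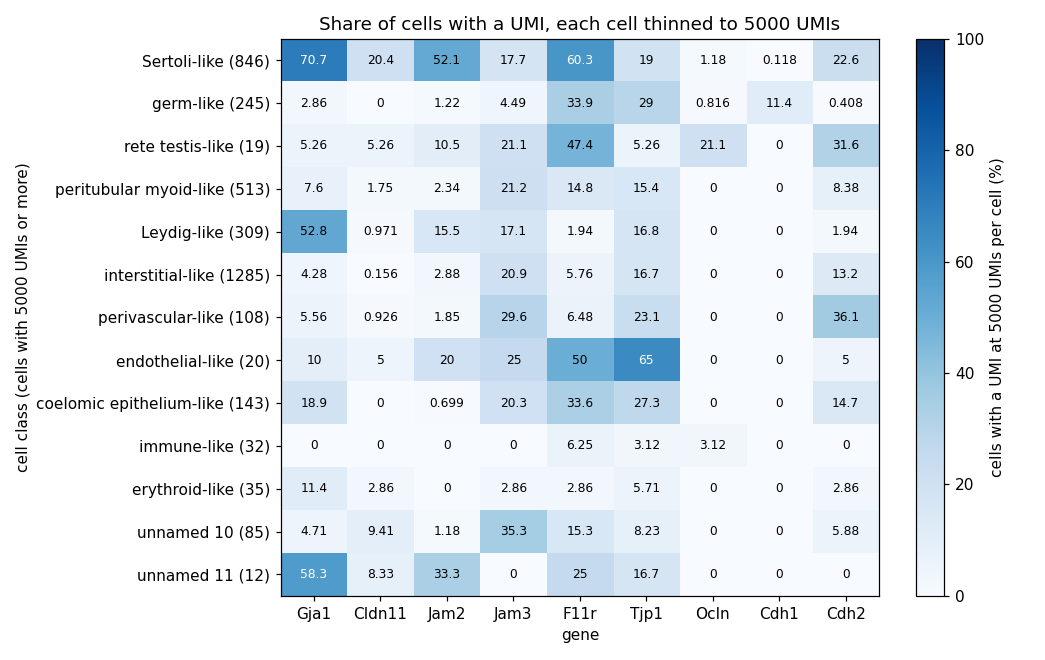
Share of cells with at least 1 UMI of each junction gene after thinning every cell to 5000 UMIs, by cell class. Rows give the class with its number of cells of 5000 UMIs or more, columns the gene, and the number in each field is the share in percent (darker is higher). In Sertoli-like cells Gja1 is seen in 70.7%, F11r in 60.3% and Jam2 in 52.1%, Gja1 is also seen in 52.8% of Leydig-like and F11r in 50% of endothelial-like cells, and Cdh1 is seen in 11.4% of germ-like cells and 0.118% of Sertoli-like cells.

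To set the classes side by side, the ratio of each class to all other cells was taken with 5 CPM added to both levels, and a gene was called at 2-fold or more. In Sertoli-like cells 5 of the 9 genes were called higher, beside 7.19% of all 15097 genes: *Jam2* (10.4-fold), *Cldn11* (8.25-fold), *Gja1* (5.35-fold), *F11r* (4.56-fold) and *Cdh2* (2.2-fold). *Jam3* (1.1-fold), *Ocln* (1.19-fold) and *Tjp1* (0.898-fold) were not called. *Cdh1* was called lower at 0.485-fold, beside 8.33% of all genes. The *Cdh2* call was lost when cells were thinned to 5000 UMIs (log2 ratio 0.91) and when Sertoli-like cells were set against interstitial-like cells alone (0.60), and the *Cdh1* call was lost when thinned (-0.46), against interstitial-like cells (-0.02) and with each cell classed by itself (-0.95).

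In the other classes few of the 9 genes were called higher. Leydig-like cells had *Gja1* (2.73-fold, 4.23% of all genes called), and germ-like cells *Cdh1* (5.90-fold) and *Tjp1* (2.04-fold), beside 9.68% of all genes. Endothelial-like cells had *Tjp1* (4.56-fold) and *F11r* (2.10-fold), beside 6.99%. Rete testis-like cells had *Ocln* and *Cdh2*, beside 6.27%, and perivascular-like cells *Cdh2*, beside 2.52%. None of the 9 was called higher in coelomic epithelium-like (3.14% of all genes), interstitial-like (3.61%), peritubular myoid-like (2.39%), immune-like (8.31%) or erythroid-like cells (2.31%). With each cell classed by itself, 5 of these calls ended: *F11r* (0.838-fold) and *Tjp1* (1.85-fold) in endothelial-like cells, *Ocln* (1.64-fold) and *Cdh2* (1.37-fold) in rete testis-like cells, and *Tjp1* in germ-like cells (1.85-fold). Thinning to 5000 UMIs ended those of *Tjp1* in germ-like (1.82-fold) and *F11r* in endothelial-like cells (1.95-fold), and keeping all doublets that of *Tjp1* in germ-like cells (1.94-fold).

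Single Sertoli-like cells held several of the genes at once. At 5000 UMIs, 98.0% of the 846 cells had a UMI of at least 1 of the 9 genes, 83.5% of at least 2, 54.1% of at least 3 and 22.7% of at least 4, with a median of 3 and a maximum of 7 genes. In interstitial-like cells the share with at least 1 was 49.9% and with at least 3 was 2.18%. In germ-like cells these shares were 60.4% and 4.08%. At least 3 were seen in 25% of the 20 endothelial-like and 21.1% of the 19 rete testis-like cells, and in immune-like cells 12.5% had at least 1 and none more. Pairs within Sertoli-like cells occurred about as often as the product of their separate shares. *Gja1* and *F11r* were seen together in 43.9% of cells where the product gives 42.6%, *Gja1* and *Jam2* in 37.1% against 36.8%, and *Jam2* and *F11r* in 32.5% against 31.4%. *Cldn11* and *Tjp1* were seen together in 5.20% against 3.89%. Per cell without thinning, *Gja1* ran from 0 to 20 UMIs with a median of 3, *F11r* from 0 to 14 with a median of 3 and *Jam2* from 0 to 16 with a median of 2.

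**Figure D3:**
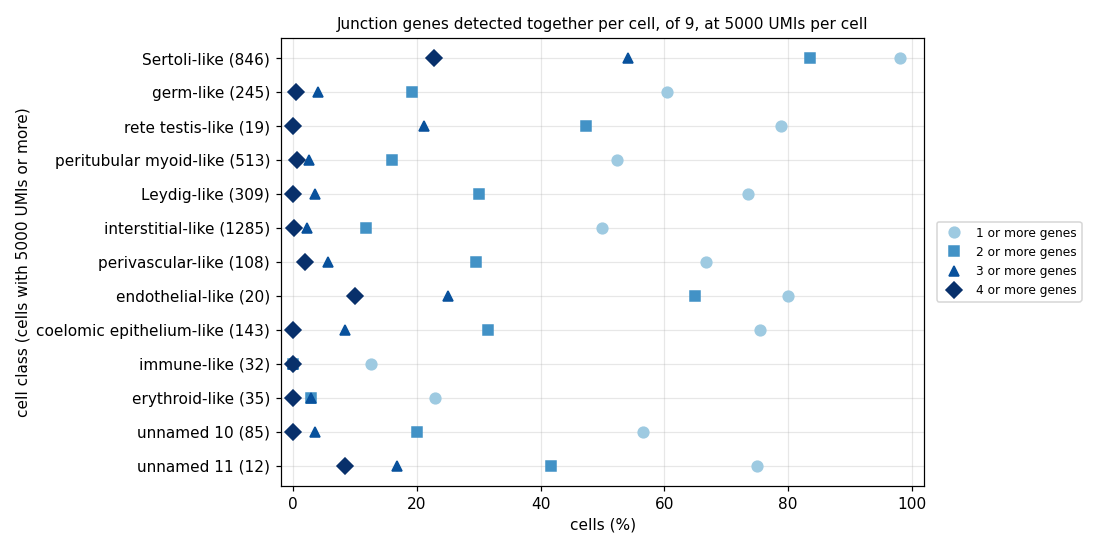
Share of cells (x axis, percent) in which at least 1, 2, 3 or 4 of the 9 junction genes had a UMI after thinning to 5000 UMIs, by cell class (y axis, with the number of cells). In Sertoli-like cells 54.1% held 3 or more of the genes, against 25% of endothelial-like, 21.1% of rete testis-like, 4.08% of germ-like and 2.18% of interstitial-like cells.

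Within the Sertoli-like class the genes were also compared between cell-cycle phases, which were called from the S and G2/M genes of each cell. Phase calls alone do not show cycling, and the median depth rose from 13149 UMIs in G1 (472 cells) to 15542 in S (200 cells) and 18648 in G2/M (191 cells). *F11r* stood at 198.6 CPM (187.7 to 210.0) in G1, 169.7 (155.5 to 184.7) in S and 169.2 (156.1 to 183.3) in G2/M. The G1 interval overlapped neither of the others. *Gja1* was at 257.7 CPM (245.3 to 270.7) in G1, 278.6 (260.4 to 297.7) in S and 241.1 (225.3 to 257.7) in G2/M. *Jam2* was highest in G2/M, with 171.2 CPM (157.9 to 185.3) against 140.6 (127.8 to 154.4) in S and 150.0 (140.5 to 159.9) in G1, whose interval overlaps both. *Jam3* was at 29.51 CPM (24.16 to 35.69) in G2/M and 39.18 (34.42 to 44.42) in G1, with intervals that overlap. *Cldn11*, *Cdh2* and *Tjp1* had overlapping intervals in all 3 phases.

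Over the 16 clusters of this 1 library, the log2 levels (5 CPM added) of *Gja1* and *Jam2* correlated at Pearson's r = 0.76, those of *Cldn11* and *Jam2* at 0.62 and those of *Gja1* and *F11r* at -0.01. *F11r* and *Tjp1* correlated at 0.57, *Gja1* and *Cdh1* at -0.47. The clusters share a library and differ in depth and size, the smallest having 19 cells, so these values describe the clusters and carry no test. Among 10274 genes that reached 20 CPM in at least 1 cluster, the gene most like *Cldn11* was *Ctnna2* (r = 0.881), an alpha-catenin of the junction list, followed by *Mafa* and *Tmem114*. Among the genes most like *F11r* were *Nhsl1* (0.882) and *Tdrp* (0.872). For *Cdh1* they were *Tdrd12* (0.981), *Gldc* and *Sycp3*, for *Ocln* *Rnase12* (0.976), *Bcat1* and *Celsr2*, and for *Cdh2* *Rasl11a* (0.921), *Gab1* and *Dgcr8*. For *Gja1* they were *Mgat4b* (0.887), *Kcnh1* and *Nr4a1*, and for *Jam2* *Abhd17a* (0.917), *Lrrc58* and *Slc7a5*. *Jam3* was most like *Zfp266* (0.955), *Pkd1* and *Prrg1*, and *Tjp1* most like *Chic1* (0.902), *Pnkd* and *Jmjd6*. The values for *Ocln* and *Cdh1* rest mostly on 1 cluster each. *Ocln* stood at 41.97 CPM in the rete testis-like cluster, from 10 UMIs, and at most at 2.404 elsewhere. *Cdh1* stood at 25.41 CPM in the germ-like cluster and at most at 8.394 elsewhere.

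The wider list of junction genes held 135 others, of which 132 were among the genes of the library and 90 were seen in at least 10 cells. Of these 90, 17 were called at least 2-fold higher in Sertoli-like cells (18.9%, beside 7.19% of all genes) and 11 at least 2-fold lower (beside 8.33% of all genes), and their median log2 ratio was 0.00416 beside -0.0648 for all genes. The 17 were 7 of 39 tight junction genes (among them *Lsr*, *Cgn*, *Pard6b*, *Cxadr*, *Cgnl1* and *Ildr2*), 6 of 35 adherens junction genes (*Ctnna3*, *Ctnna2*, *Plekha7*, *Nectin2*, *Jup*, *Nectin1*), 3 of 8 desmosome genes (*Dsp*, *Dsg2*, *Dsc2*) and 1 of 8 gap junction genes (*Gjb2*). *Dsp*, desmoplakin, which links desmosomes to intermediate filaments, had 114.3 CPM (108.5 to 120.3) in Sertoli-like cells, 15.0-fold the rest with 5 CPM added. *Lsr*, a protein of the corners where 3 cells meet, had 173.4 CPM (166.3 to 180.7; 14.2-fold). *Cgn*, cingulin of the tight junction plaque, had 62.7 CPM (6.09-fold), and *Ctnna3*, an alpha-catenin, 29.11 CPM (5.48-fold). The 2 desmosomal cadherins tested, *Dsg2* and *Dsc2*, were thus both called higher. Beside 7.19% of all genes, none of the 11 other claudins tested was called higher in Sertoli-like cells. Nor was any of the 16 other classical and atypical cadherins tested. For so few genes, no call is near that share. At 3-fold, 11 of the 90 genes were called higher, and the share of all genes past 3-fold is not given here.

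In the other classes, shares of the 90 genes called higher are given with those of all genes in brackets. Endothelial-like cells had 16.7% (6.99%), coelomic epithelium-like 11.1% (3.14%), rete testis-like 11.1% (6.27%), perivascular-like 6.67% (2.52%) and peritubular myoid-like 4.44% (2.39%). Germ-like cells had 7.78% (9.68%), Leydig-like 3.33% (4.23%), interstitial-like 2.22% (3.61%), immune-like 2.22% (8.31%) and erythroid-like 2.22% (2.31%). Other genes of the list led in these classes, several of them in more than 1 class. In endothelial-like cells these were *Cldn5* (849.0 CPM, 731.7 to 979.8), the claudin of vessels, *Cdh5* (871.7 CPM), VE-cadherin, *Esam* (513.0 CPM) and *Gja4* (31.78 CPM, 7 UMIs), beside the high *Tjp1* and *F11r* of the same cells. In germ-like cells *Pkp2*, *Shroom3* and *Patj* stood at 44.52, 42.92 and 23.12 CPM. Peritubular myoid-like cells, with *Cdh1* at 0 UMIs and *Cdh2* at 15.12 CPM, had *Cdh11* at 279.5 CPM, *Cdh3* at 64.48 and *Cdh6* at 25.25, and *Clmp* at 132.4. *Cdh11* was at 257.8 CPM in interstitial-like, 222.5 in perivascular-like, 192.7 in coelomic epithelium-like and 3.012 in Sertoli-like cells. The unnamed cluster 10 stood highest for *Cdh11*, at 653.1 CPM (599.9 to 709.7), and for *Clmp*, at 187.9 (159.9 to 219.4). *Amotl1* led beside *Cdh11* in interstitial-like cells (69.87 CPM, 2.21-fold). The level of *Amotl1* was 131.7 CPM in endothelial-like, 82.97 in perivascular-like and 77.52 in cluster 10 cells. All remaining classes lay below its interstitial-like level. Coelomic epithelium-like cells had *Cdh3* at 158.4 CPM, *Cdh6* at 32.54, *Ildr2* at 27.84 and *Gjb5* at 24.59. Leydig-like cells, with *F11r* at 2.789 CPM, had *Amotl2* at 71.48 CPM and *Nectin1* at 52.48. In perivascular-like cells *Esam* (27.15 CPM), *Pdlim5* and *Amotl1* were among those that led, in rete testis-like cells *Pkp2* (71.35 CPM, 17 UMIs), *Pdlim5*, *Plekha7* and *Ildr2*, in erythroid-like cells *Cldn13* (152.2 CPM) and *Ybx3*, and in immune-like cells *Cldn15* (42.09 CPM, 23 UMIs).

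**Figure D4:**
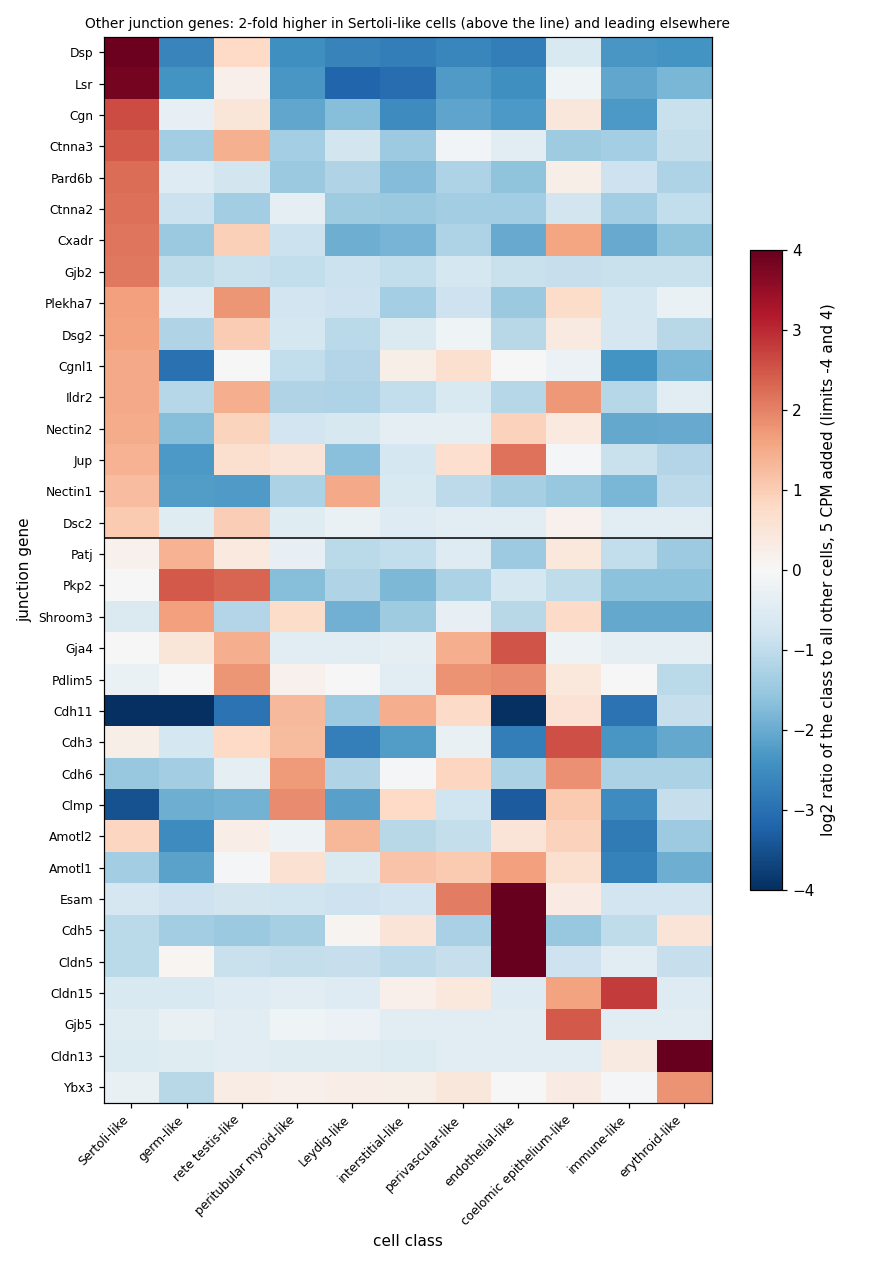
Log2 ratio of each named cell class (x axis) to all other cells, with 5 CPM added, for other genes of the junction list (y axis), colours limited to -4 and 4. The 16 genes above the line are at least 2-fold higher in Sertoli-like cells, led by Dsp and Lsr, and those below lead in other classes, such as Cldn5 and Cdh5 in endothelial-like cells.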

How the data were processed

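Reads had been mapped by the authors with Cell Ranger to mm10 plus a YFP sequence, and the deposited values are raw UMI counts (genes by cell barcodes). The header names software version 3.1.0, the processing notes versions 3.0.2 and 3.1.0. The 9 genes and the marker and junction lists were chosen with earlier results of these data known.

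Barcodes with under 200 genes (372), the 204 with most artificial doublets among their neighbours (4.04%) and 1024 outliers beyond 3 median absolute deviations were removed. The kept cells were clustered in R 4.3.3 (Seurat 5.3.0, sctransform 0.4.2) on 2971 of 3000 variable genes (29 junction genes left out), 30 components and resolution 0.8. A cluster was named from a marker list with a mean log2 ratio of at least 1 and 3 markers in 25% of its cells. It stayed unnamed if its median UMIs were under 1/3 of the library median with no list marker among its 10 leading genes. The same held where these genes included more markers of another class. Cluster 11 met the marker rule for Sertoli cells (ratio 1.23, 8 of 10 markers). The depth rule left it unnamed, and its cells counted among all other cells. Levels, exact intervals, ratios and thinning used Python 3.11.15, numpy 2.4.6, scipy 1.17.1 and pandas 2.3.3. Ratios, their intervals and the naming were tested on simulated counts with Poisson spread only, so spread between cells was not covered. Thinning was checked on cells of the library.

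With 1 library no test was possible. Named genes were the 9 genes, for each class the up to 4 other junction genes with the highest ratio among those at 2-fold and 20 CPM or more, and for each gene the 3 with the highest correlation over clusters. Called genes of the list were named as well, after their values were seen. Some genes that these rules name are not reported here. Positions came from the GENCODE annotation and promoter windows from RefSeq, both on GRCm38. Other filters, doublet rates, resolutions, normalizations, class assignments, folds and added CPM were tried. The mutant library was not analysed here.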

Additional observations from a re-analysis of the deposited data

Results flagged for a closer look

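The 372 barcodes with fewer than 200 genes took no part in the comparisons. Hemoglobin genes made up 46.8% and mitochondrial genes 49.2% of their UMIs, and 56912 UMIs came from other genes. Among these, 5 UMIs were of *Gja1* (87.85 per 1000000 of the other UMIs, 28.53 to 205.0) and 4 of *F11r* (70.28, 19.15 to 180.0), both above the 3 counts taken as the limit of detection. The other 7 genes had between 0 and 3 UMIs, and the Sertoli markers together 64. Whether these molecules came from free RNA was not tested.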

How the results depend on the processing

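The number of the 9 genes called higher in Sertoli-like cells was 5 and stayed between 4 and 5 under all 14 alternatives. Among the 90 other junction genes, 17 were called, 11 at 3-fold, and between 16 and 21 under the other alternatives. Shares of all genes under the alternatives are not given here. Of 318 recomputed values of single genes, 257 stayed inside the interval of the reported value and 61 lay outside it. No called ratio of Sertoli-like cells to all other cells changed sign. In endothelial-like cells the called ratio of *F11r*, 2.10-fold, fell below even, to 0.838-fold, with each cell classed by itself. Of the ratios not called, *Jam3* (log2 ratio 0.14) was at -0.11 when thinned and -0.20 against interstitial-like cells, and *Tjp1* (-0.16) at 0.05 and 0.21. The level of *Gja1* in Leydig-like cells ran from 187.1 CPM (thinned) to 266.0 CPM (no doublets removed). The upper end lay above the reported Sertoli-like level of 258.2 CPM, so the order of the 2 classes depends on the cells counted as Leydig-like. Sertoli-like levels of *Gja1* under the alternatives are not given here. The level of *Cdh2* in perivascular-like cells ran from 77.38 to 123.6 CPM. Counting the shallow cluster 11 as Sertoli-like, an alternative chosen after seeing the data, gave 927 cells and left both counts at 5 and 17. Sertoli-like cells numbered 863 in the main setting, 1195 with the outlier filter at 5 deviations and 534 with each cell classed by itself. Without the outlier filter there were 1305 Sertoli-like, 309 germ-like and 391 Leydig-like cells, against 863, 249 and 312 in the main setting. Rete testis-like and endothelial-like values rest on 19 and 20 cells. Depth limits the genes near 0 UMIs, *Ocln* and *Cdh1* in most classes. No paired analysis was possible because there was 1 library.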
